A study of Mus musculus with 78 samples.

Results

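Plk1, Bub1b and 8 further regulators of mitosis, Aurka, Aurkb, Ccnb1, Cdc20, Cdc25c, Cdk1, Kif20a and Tubgcp3, were followed in mouse embryonic stem cells (mESCs) that lose the transcription factor ZFP143. The 10 genes were taken by name, of 55401 genes in each count table, and all 10 passed the filter on low counts in all 3 tables. They were brought together because PLK1 and BUB1B are reported targets of the human ortholog ZNF143, and the others act beside them in mitosis. All cells were of the E14TG2a line with the genotype ZFP143-FKBP, in which a FKBP-2xHA-P2A-GFP cassette sits at the end of the Zfp143 gene, so controls and treated cells carry the same tag. The molecule dTAG-V1, given at 500 nM, directs the tagged protein to degradation, and control cells received DMSO. How many clones the libraries came from is not given in the sources used here.

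The 3 count tables held 24 libraries in 12 groups of 2. Transient transcriptome sequencing (TT-seq), which reads RNA made during a short pulse of 4-thiouridine, covered DMSO and 2, 6 and 24 h of dTAG-V1. RNA-seq covered DMSO and depletion for 24 h, 48 h or 72 h. Its single DMSO group served all 3 times, and the labels give no hours for it. Time in culture and length of depletion therefore cannot be told apart in this time course. A separate RNA-seq experiment covered cells kept for 24 h in DMSO or dTAG-V1, and cells that then spent a further 24 h with retinoic acid (RA), a signalling molecule that drives stem cells out of the pluripotent state, in the same compound. The depleted cells with RA had thus been depleted for 48 h, and RA came with a change to a differentiation medium. No library of that medium without RA was analysed here, so each RA value holds both changes. Levels are given as CPM, counts divided by the library total after TMM scaling. Libraries held between 9721568 and 16532077 counts in TT-seq, 10261851 and 15316700 in the RNA-seq time course and 13890761 and 27089033 in the RA experiment. Stem cell markers were present: their 8 genes summed to 6520.1 to 6725 CPM in the DMSO libraries of the time course, against 2.94 to 3.28 CPM for 6 fibroblast markers, of which Col1a2, Col3a1 and Dcn had no count there. The RNA of Zfp143 itself, which does not measure the degraded protein, was 43.0 and 44.3 CPM in DMSO and 111 and 105 CPM at 72 h, and it rose in each of the 8 comparisons of depleted with control cells.

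Entry into mitosis is driven by the kinase CDK1 bound to cyclin B1 (Ccnb1), which the phosphatase CDC25C (Cdc25c) switches on by removing inhibitory phosphates. Polo-like kinase 1 (Plk1) and Aurora kinase A (Aurka) act with them at the centrosomes and spindle poles, where the gamma-tubulin ring complex, of which Tubgcp3 encodes a core subunit, nucleates microtubules. Aurora kinase B (Aurkb) corrects wrong attachments of chromosomes, BUBR1 (Bub1b) holds the spindle checkpoint until all chromosomes are attached, and CDC20 (Cdc20) then activates the anaphase-promoting complex, which marks cyclin B1 for destruction. The kinesin KIF20A (Kif20a) works later, at the central spindle during cytokinesis. Many of these genes are transcribed mainly in late G2 and M phase, through promoters that carry CCAAT boxes and a cell cycle genes homology region (CHR).

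The ZFP143 peak list, called by the authors from ChIP-seq against the HA tag, was used to ask which members carry a peak at their promoter. A peak was present at 4 of the 10 promoters, those of Plk1, Bub1b, Kif20a and Tubgcp3, against 2089 of 13660 protein-coding genes tested in TT-seq (15.3%). Plk1 and Bub1b were taken as reported targets, and the members were chosen with earlier results of these data known. The count of 4 is therefore no test of enrichment. A peak counted where it touched the stretch between 2000 bp before and 1000 bp after a transcript start and had its centre at most 2000 bp from that start. In mm10 the peak of Plk1 (chr7:122159071-122159619) had its summit 52 bp upstream of the start and an enrichment of 51.7-fold over input. The peak of Bub1b (chr2:118597880-118598451) lay 54 bp upstream with 44.3-fold, that of Kif20a (chr18:34623882-34624887) 3 bp upstream with 68.0-fold, and that of Tubgcp3 (chr8:12671620-12672434) 13 bp upstream of a transcript start with 95.7-fold. All 4 exceeded the median enrichment of the 3189 peaks, 20.8-fold, and Tubgcp3 ranked 141 among them.

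For the other 6 members the nearest summit was 7526 bp from a transcript start in Cdc25c, 14473 bp in Cdk1, 22684 bp in Aurkb, 46813 bp in Ccnb1, 248882 bp in Aurka and 520552 bp in Cdc20. No member had a CTCF peak at its promoter by the same rule, although the centre of a CTCF peak lay 1204 bp from a start of Ccnb1 and 1610 bp from a start of Cdc25c, in peaks that did not reach the stretch. The ZFP143 list is a single list without replicates, so these enrichments carry no error.

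The promoters of 3 bound members are shown with those of Aurka and Cdk1, which lack a peak, to set the letters under the peaks beside promoters of the same pathway. The sequences are from RefSeq on GRCm38.p6, the build of mm10, and run from 250 bases before to 50 bases after the RefSeq start on the strand of the gene. An entry was used for 7 of the 10 members. Capitals mark the letters searched on both strands: the core of the ZFP143 binding site (SBS core, CCCANNATGC), the module ACTACA that stands before it in many sites, TTTGAA for the CHR and CCAAT for the CCAAT box, which reads ATTGG on the other strand. No 2 of these matches overlap.
Plk1, chr7:122159185-122159484, plus strand: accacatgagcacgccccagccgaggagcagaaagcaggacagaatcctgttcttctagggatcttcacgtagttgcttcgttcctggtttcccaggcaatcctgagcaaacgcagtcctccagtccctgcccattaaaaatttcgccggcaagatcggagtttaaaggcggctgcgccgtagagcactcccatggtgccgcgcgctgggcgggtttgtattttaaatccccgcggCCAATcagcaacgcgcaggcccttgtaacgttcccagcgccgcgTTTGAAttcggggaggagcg
Bub1b, chr2:118597961-118598260, plus strand: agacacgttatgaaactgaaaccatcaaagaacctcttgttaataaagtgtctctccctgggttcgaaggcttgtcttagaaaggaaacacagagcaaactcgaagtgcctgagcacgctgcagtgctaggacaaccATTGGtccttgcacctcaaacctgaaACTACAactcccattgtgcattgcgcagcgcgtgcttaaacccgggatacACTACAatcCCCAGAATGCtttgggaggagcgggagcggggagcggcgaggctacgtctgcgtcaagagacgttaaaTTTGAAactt
Tubgcp3, chr8:12672051-12672350, minus strand: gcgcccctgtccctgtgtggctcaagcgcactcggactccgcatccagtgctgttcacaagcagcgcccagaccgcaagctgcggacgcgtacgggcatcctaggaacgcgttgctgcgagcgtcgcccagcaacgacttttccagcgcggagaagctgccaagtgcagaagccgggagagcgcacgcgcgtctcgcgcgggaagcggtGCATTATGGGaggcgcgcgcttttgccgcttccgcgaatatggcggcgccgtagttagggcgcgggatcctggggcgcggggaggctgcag
Aurka, chr2:172370521-172370820, minus strand: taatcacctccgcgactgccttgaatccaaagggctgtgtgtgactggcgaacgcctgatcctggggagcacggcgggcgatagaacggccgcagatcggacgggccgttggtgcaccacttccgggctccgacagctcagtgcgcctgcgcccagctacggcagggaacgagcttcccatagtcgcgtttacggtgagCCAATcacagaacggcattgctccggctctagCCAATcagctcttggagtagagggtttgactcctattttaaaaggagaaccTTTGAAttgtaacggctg
Cdk1, chr10:69352863-69353162, minus strand: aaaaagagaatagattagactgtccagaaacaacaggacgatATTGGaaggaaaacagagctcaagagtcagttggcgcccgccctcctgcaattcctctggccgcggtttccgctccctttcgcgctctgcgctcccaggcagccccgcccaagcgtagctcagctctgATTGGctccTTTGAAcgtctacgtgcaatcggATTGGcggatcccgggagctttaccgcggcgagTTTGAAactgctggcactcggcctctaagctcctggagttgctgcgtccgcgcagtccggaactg

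The promoter of Bub1b held the SBS core 28 bases before the start, with an ACTACA 37 bases and another 87 bases before the start. The promoter of Tubgcp3 held the SBS core on the opposite strand, 41 bases before the start and at the summit of the peak. The promoter of Plk1 held neither the SBS core nor ACTACA, and neither did the whole peaks of Plk1 and Kif20a, which says only that these letters were not in those windows. The SBS core occurred in 1.88% of 32851 promoters of the same length and in 23.9% of the ZFP143 peaks, and ACTACA in 10.3% and 41.3%. TTTGAA was found in 5 of the 7 member promoters, those of Plk1, Bub1b, Aurka, Cdc20 and Cdk1, against 17.9% of all promoters. CCAAT was found in 6 of 7, all but Tubgcp3, against 37.4%. In Plk1, Bub1b and Aurka the TTTGAA lay 30, 40 and 32 bases after the start.

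Per kilobase of exon, the members spanned a wide range of mRNA levels in DMSO cells of the time course. Cdc20 had 114 ± 3.45 CPM per kb (SD, n = 2), Plk1 91.5 ± 1.98, Bub1b 71.5 ± 2.56, Kif20a 65.9 ± 0.58, Ccnb1 63.6 ± 0.37 and Aurka 54.8 ± 0.59. Cdk1 had 39.4 ± 2.80 CPM per kb and Aurkb 35.4 ± 1.88, whose difference of 4.05 was less than the sum of the SDs, while Tubgcp3 had 8.09 ± 0.28 and Cdc25c 6.63 ± 0.21. Other neighbours in that order differed by more than the sum of their SDs. The length was that of all annotated exons of a gene joined. The order also depends on this divisor, which the SDs do not include. Tubgcp3, the member with the highest ZFP143 enrichment, was thus among the least abundant. Per kilobase of gene, nascent RNA in DMSO cells was highest for Ccnb1 with 28.2 ± 1.40 CPM per kb, and lowest for Cdc25c with 1.85 ± 0.45 and Tubgcp3 with 1.78 ± 0.07, which did not differ beyond their spread.

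TT-seq at 2 h asked which genes lost transcription soon after ZFP143 was removed. Nascent RNA of the 4 members with a ZFP143 peak fell, most of all that of Tubgcp3, and none of the 6 without a peak passed the test. Tubgcp3 had 100.02 and 106 CPM in DMSO and 34.0 and 37.8 CPM after 2 h, a 2.87-fold decrease (log2 change -1.52 ± 0.15 SE, edgeR quasi-likelihood test, adjusted p = 0.00156). Plk1 had 96.1 and 85.3 CPM in DMSO and 62.9 and 59.9 CPM after 2 h (1.48-fold lower, log2 change -0.56 ± 0.12, edgeR adjusted p = 0.0494). Both treated libraries lay below both controls for each gene, and the adjusted p of Plk1 was just under the threshold of 0.05.

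Bub1b had 158 and 170.2 CPM in DMSO against 106 and 104 CPM after 2 h (log2 change -0.65 ± 0.12, edgeR adjusted p = 0.0218). Kif20a had 84.9 and 78.2 CPM against 51.6 and 51.0 CPM (log2 change -0.67 ± 0.13, edgeR adjusted p = 0.0365). The libraries of the groups did not overlap for either gene. A gene was called in TT-seq when its adjusted p was under 0.05 and its log2 change larger than 0.5 in size. Genes called lower made up 2.43% of the 17870 tested genes, and 17.8% of the protein-coding genes with a ZFP143 peak against 0.181% of those without. The members' median log2 change was -0.36, against 0.01 for all tested genes. The choice of members bears on this median too, so it is no test of the set.

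With 2 libraries a group, 3 of the 4 calls at 2 h rested on each library. Leaving out any of the 4 libraries, DMSO replicate 1 or 2 or 2 h replicate 1 or 2, left Tubgcp3 as the only member called, with an edgeR adjusted p of at most 0.0342, while the log2 change stayed between -0.63 and -0.47 for Plk1, -0.70 and -0.58 for Bub1b and -0.71 and -0.60 for Kif20a. The edgeR adjusted p of Plk1 was also 0.0504 without the filter on counts and 0.0524 with the size factors of DESeq2.

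The other 6 members ranged from a log2 change of -0.45 ± 0.16 in Aurkb to -0.01 ± 0.17 in Cdc25c at 2 h, with edgeR adjusted p-values from 0.287 to 0.99. Aurkb had 35.6 and 33.1 CPM in DMSO and 26.0 and 24.2 CPM after 2 h, so that its groups did not overlap, and neither did those of Cdc20 and Cdk1. In 20.6% of all tested genes both libraries at 2 h lay below both DMSO libraries. The groups of Aurka, Ccnb1 and Cdc25c overlapped.

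**Figure D1:**
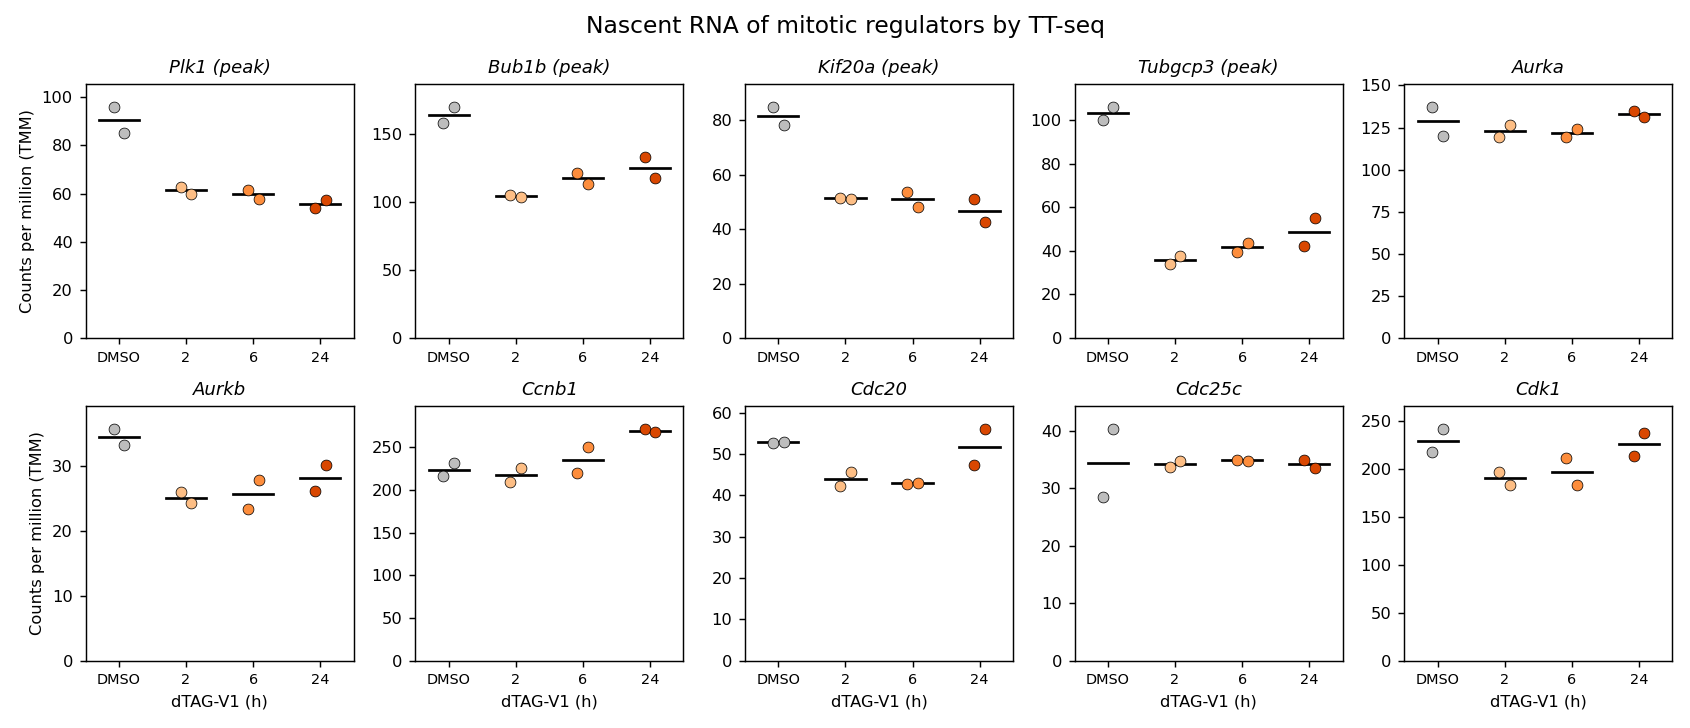
CPM (vertical axis, TMM-scaled, from 0) of the 10 members in each TT-seq library, by hours of dTAG-V1; points are libraries, bars the mean of 2, and "peak" marks a ZFP143 peak at the promoter. Tubgcp3 drops from 100.02 and 106 CPM to 34.0 and 37.8 CPM at 2 h, and the treated points of Plk1, Bub1b and Kif20a lie below both DMSO points at each time.

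**Figure D2:**
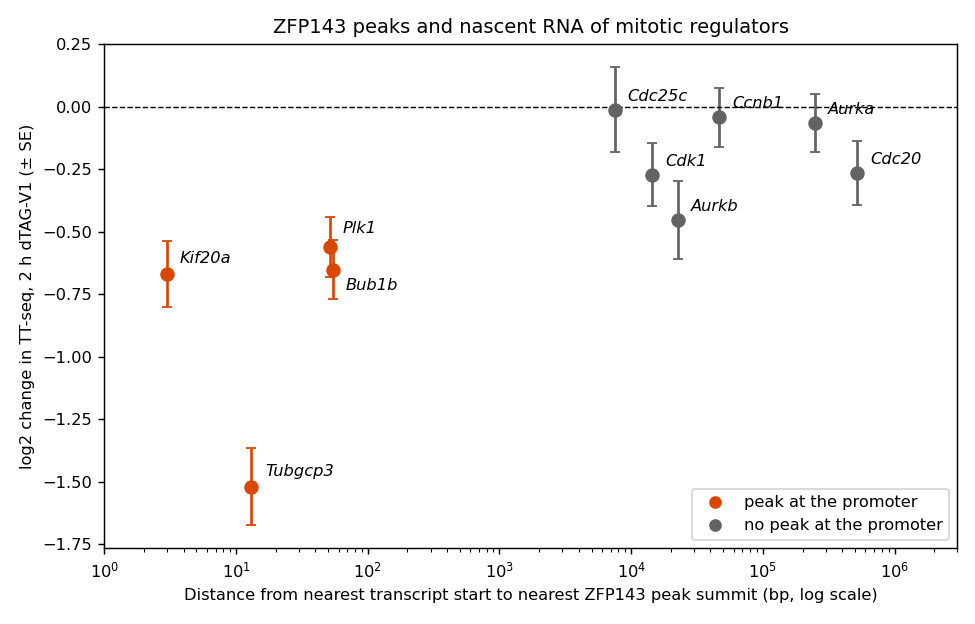
Log2 change in TT-seq at 2 h (vertical axis, error bars SE) against the distance in bp, on a log scale, from the nearest ZFP143 summit to a transcript start, for the 10 members. The 4 members with a peak at the promoter lie within 54 bp and at -0.56 or below, and the 6 others lie at 7526 bp or more and at -0.45 or above.

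After 6 and 24 h, nascent RNA of Plk1, Kif20a and Tubgcp3 stayed below DMSO, and that of Bub1b did not pass the test. Plk1 had 61.4 and 57.9 CPM at 6 h and 54.0 and 57.5 CPM at 24 h, with log2 changes of -0.60 ± 0.12 (edgeR adjusted p = 0.0327) and -0.70 ± 0.12 (edgeR adjusted p = 0.0132). Kif20a had 53.8 and 48.1 CPM at 6 h and 50.9 and 42.7 CPM at 24 h, with log2 changes of -0.68 ± 0.13 and -0.80 ± 0.13 (edgeR adjusted p = 0.0314 and 0.0114). Both genes kept every treated library below every DMSO library.

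Tubgcp3 had 39.5 and 43.8 CPM at 6 h and 42.4 and 55.1 CPM at 24 h, 2.47-fold and 2.11-fold below DMSO (edgeR adjusted p = 0.00273 and 0.00526). Bub1b had 122 and 113 CPM at 6 h and 133 and 118 CPM at 24 h, with log2 changes of -0.48 ± 0.12 and -0.39 ± 0.12 (edgeR adjusted p = 0.0706 and 0.0941), again with no overlap with DMSO, which held in the same direction for 23.7% of all tested genes at 6 h and 24.1% at 24 h. The 3 calls at each time stand beside 2.83% and 4.09% of all tested genes called lower, and no member was called higher at 2, 6 or 24 h, beside 0.168%, 0.397% and 2.02% of all genes. DESeq2 also called none higher, and at an unadjusted p under 0.05 the counts were 0, 0 and 1, the last being Ccnb1. Ccnb1 had 271 and 268 CPM at 24 h against 216 and 231 CPM in DMSO, at an edgeR adjusted p of 0.229. All 3 times share their 2 DMSO libraries, and leaving out a library left between 0 and 1 members called at 6 h and between 1 and 3 at 24 h. At 6 h the call of Tubgcp3 was lost without 6 h replicate 1 (edgeR adjusted p = 0.0566), and those of Plk1 and Kif20a were lost without any of the 4 libraries. At 24 h the call of Plk1 was lost without DMSO replicate 1 or either 24 h replicate, with an edgeR adjusted p of up to 0.078, and that of Kif20a without DMSO replicate 1 or 24 h replicate 2, with up to 0.0766.

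RNA-seq over 3 days asked how the mRNA followed. The bound members took 2 courses: Tubgcp3 mRNA fell at 24 h and was back near its DMSO level by 72 h, while Plk1, Kif20a and Bub1b were lowest at 72 h. A gene was called here when glmTreat of edgeR placed its change beyond 1.5-fold with an adjusted p under 0.01, so a smaller change is not called however small its error. At 24 h Tubgcp3 alone was called, beside 3.41% of all 13925 tested genes, at 48 h Plk1, Kif20a and Tubgcp3 (7.71% of all genes), and at 72 h Plk1, Bub1b and Kif20a (12.0%). Of the protein-coding genes, 26.0% with a ZFP143 peak and 10.2% without were called lower at 72 h. No member was called higher by edgeR, DESeq2 or at an unadjusted p under 0.05, beside 2.32%, 10.5% and 13.7% of all genes. The median log2 change of the members was 0.07, -0.27 and -0.56 at the 3 times, against 0.02, 0.01 and 0.02 for all genes tested. In bulk RNA, fewer cells in mitosis and less RNA in each such cell cannot be told apart. All 3 times share their 2 DMSO libraries, so time in culture cannot be told apart from depletion either.

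Plk1 had 204 and 198 CPM in DMSO, 157 and 162 CPM at 24 h, 116 and 112 CPM at 48 h and 88.9 and 92.1 CPM at 72 h. Both libraries of each time point lay below both of the one before it. At 72 h 41.8% of all tested genes had both libraries below both DMSO libraries. The log2 change was -0.33 ± 0.05 at 24 h, -0.82 ± 0.05 at 48 h (edgeR adjusted p = 2.29e-05) and -1.15 ± 0.05 at 72 h (edgeR adjusted p = 5.8e-12), a 2.22-fold decrease.

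Kif20a had 284 and 288 CPM in DMSO, 193 and 196 CPM at 24 h, 151 and 158 CPM at 48 h and 124 and 123 CPM at 72 h. Its log2 change went from -0.56 ± 0.04 at 24 h, which was not beyond 1.5-fold, to -1.21 ± 0.05 at 72 h (edgeR adjusted p = 1.1e-13). Bub1b had 298 and 313 CPM in DMSO, 244 and 248 CPM at 24 h, 218 and 226 CPM at 48 h and 178 and 179 CPM at 72 h. The last of these was beyond 1.5-fold (log2 change -0.78 ± 0.04, edgeR adjusted p = 7.24e-05) and the earlier ones were not. No depleted library of Kif20a or Bub1b reached a DMSO library, and at 72 h 41.8% of all tested genes separated downward.

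Tubgcp3 had 67.6 and 71.0 CPM in DMSO, 29.8 and 29.0 CPM at 24 h, 38.6 and 36.8 CPM at 48 h and 61.6 and 65.4 CPM at 72 h. The depleted libraries were thus lowest at 24 h, where those of Plk1 were highest. Its log2 change was -1.24 ± 0.07 at 24 h (edgeR adjusted p = 6.01e-09), -0.88 ± 0.07 at 48 h (edgeR adjusted p = 0.000174) and -0.12 ± 0.06 at 72 h. Between 24 and 72 h of depletion Tubgcp3 rose by a log2 change of 1.11 ± 0.07 (edgeR adjusted p = 1.77e-07) and Plk1 fell by 0.82 ± 0.05 (edgeR adjusted p = 7.59e-05), the 2 members called in that comparison, beside 7.53% of all genes called higher and 6.60% called lower. With the thresholds of the TT-seq fit 6 members would be called lower there, with Aurka, Aurkb, Ccnb1, Cdk1 and Kif20a added (16.7% of all genes). Nascent Tubgcp3 RNA at 24 h, the last time of TT-seq, was 2.11-fold below DMSO, and nascent RNA at 48 and 72 h was not analysed here.

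The 6 members without a peak had log2 changes between 0.03 and 0.27 at 24 h, and 5 of them, all but Cdk1, had both depleted libraries above both DMSO libraries, as did 36.6% of all tested genes. At 72 h Aurka, Aurkb, Ccnb1, Cdc20 and Cdk1 had both depleted libraries below DMSO, as did 41.8% of all tested genes. Aurka had 138 and 139.7 CPM in DMSO, 149.9 and 154 CPM at 24 h and 96.3 and 92.4 CPM at 72 h. Aurkb had 108 and 100.3 CPM in DMSO, 114 and 114 CPM at 24 h and 69.2 and 69.8 CPM at 72 h. Cdk1 had 185 and 204 CPM in DMSO, 199 and 198 CPM at 24 h and 132 and 133 CPM at 72 h. The log2 changes at 72 h were -0.56 ± 0.05, -0.58 ± 0.06 and -0.56 ± 0.05, which glmTreat did not place beyond 1.5-fold (edgeR adjusted p = 0.886, 0.626 and 0.921). Ccnb1 and Cdc20 had -0.44 ± 0.04 and -0.21 ± 0.05, and Cdc25c, which activates CDK1, had -0.01 ± 0.09 with overlapping groups. At 48 h these 6 members lay between -0.32 in Cdk1 and 0.47 in Cdc25c, and none was called. Cdc25c had 33.3 and 31.9 CPM in DMSO and 45.9 and 44.0 CPM at 48 h, with both depleted libraries above both DMSO libraries, as in 41.5% of all tested genes. Its log2 change of 0.47 ± 0.09 was not placed beyond 1.5-fold by glmTreat.

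**Figure D3:**
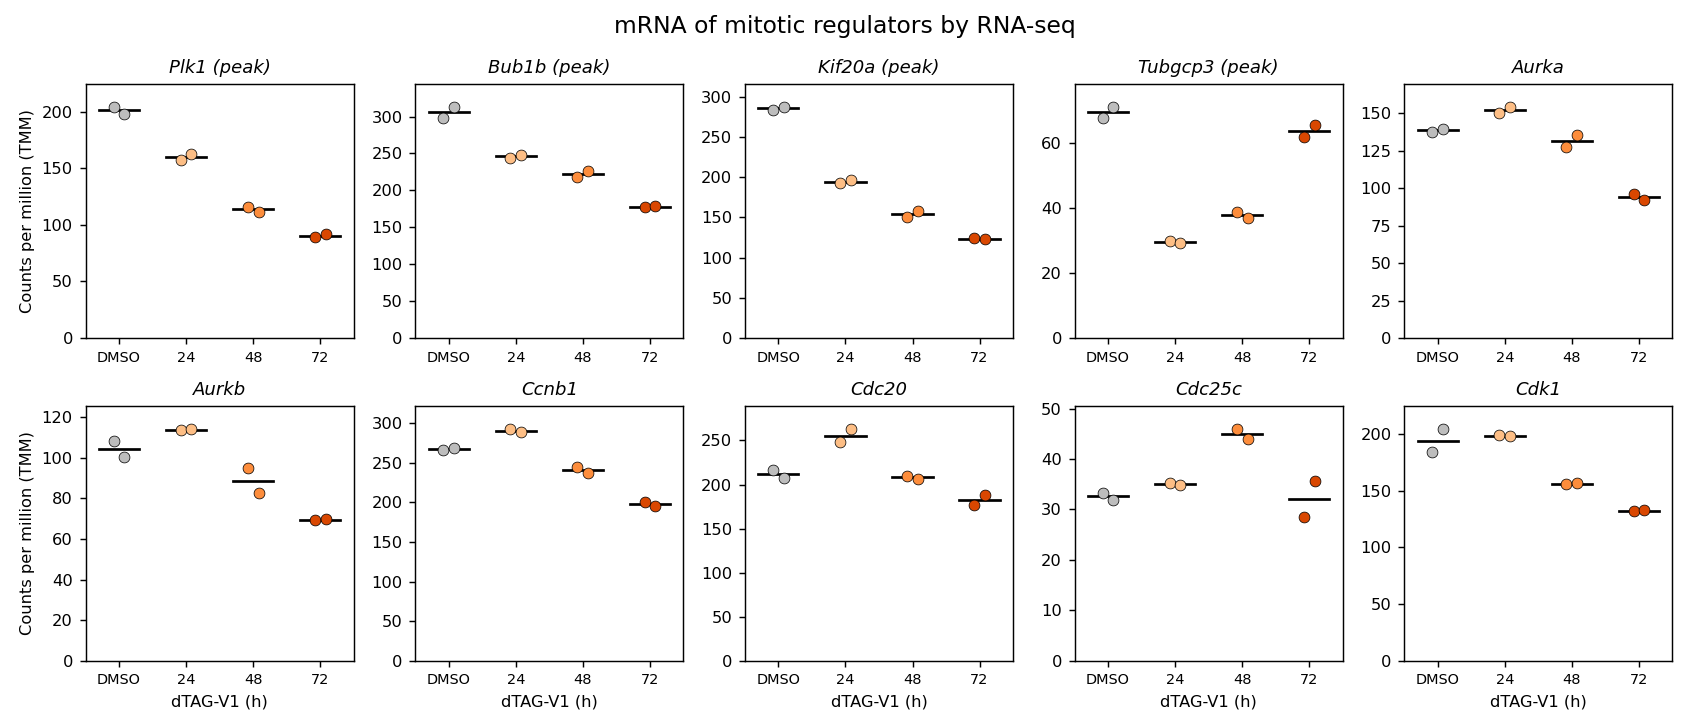
CPM (vertical axis, TMM-scaled, from 0) of the 10 members in each RNA-seq library, by hours of dTAG-V1; points are libraries and bars the mean of 2. Plk1 descends from 204 and 198 CPM to 88.9 and 92.1 CPM at 72 h, whereas Tubgcp3 dips to 29.8 and 29.0 CPM at 24 h and is back at 61.6 and 65.4 CPM at 72 h.

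With the thresholds of the TT-seq fit, 6 members would be called lower at 72 h, with Aurka, Aurkb and Cdk1 added (22.0% of all genes), and 2 at 24 h, with Kif20a added (8.52%). The call of Tubgcp3 at 48 h was lost in DESeq2. Scaled by library size alone, which places the median of all genes at 0.21 at 48 h and 0.23 at 72 h, no member was called at 48 h, Bub1b was not called at 72 h, and Tubgcp3 and Cdc20 at 72 h turned to 0.09 and 0.01. Stem cell markers moved over the same days, with the sum of their 8 genes at 5363 to 5464 CPM at 24 h and 4216 to 4265 CPM at 72 h and 3 of 8 called lower at 72 h, while 6 primitive endoderm markers summed to 5.97 to 7.13 CPM in DMSO and 16.71 to 16.74 CPM at 72 h. The 8 neural markers summed to 224 to 236 CPM in DMSO and 149 to 156 CPM at 72 h, and the 6 fibroblast markers to 6.48 to 7.66 CPM at 48 h and 4.98 to 6.29 CPM at 72 h, with 2 of 3 tested called higher at both times and no count of Dcn. The part of these markers in the change of the members was not tested.

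Before RA, 24 h of dTAG-V1 in the separate experiment gave another view of the early change, with its own DMSO libraries. Kif20a and Tubgcp3 fell, and Plk1 and Bub1b had lower values in both libraries without passing glmTreat. Tubgcp3 had 69.4 and 62.2 CPM in DMSO and 32.6 and 33.0 CPM in dTAG-V1, a 2.01-fold decrease (edgeR adjusted p = 0.000512). Kif20a had 451 and 461 CPM against 256 and 259.8 CPM (log2 change -0.82 ± 0.07, edgeR adjusted p = 0.00371). No depleted library of these genes reached a DMSO library, the same held for the next pair, and 31.1% of all tested genes separated in this way. Plk1 had 281 and 306 CPM against 182 and 187 CPM (log2 change -0.67 ± 0.07, edgeR adjusted p = 0.288) and Bub1b 443 and 449.6 CPM against 266 and 278 CPM (log2 change -0.71 ± 0.07, edgeR adjusted p = 0.124).

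The 2 calls stand beside 3.66% of 15915 tested genes, and no member was called higher by edgeR, DESeq2 or at an unadjusted p under 0.05, beside 2.74%. With the thresholds of the TT-seq fit 4 members would be called lower (8.43% of all genes). The call of Kif20a was lost without DMSO replicate 2 or either dTAG-V1 replicate, with an edgeR adjusted p of up to 0.0449, that of Tubgcp3 without DMSO replicate 1 (edgeR adjusted p = 0.01002), and both with library size alone, which places the median of all genes at 0.20. The members without a peak lay between -0.07 and 0.23.

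RA was added to ask how depleted cells differentiate. In DMSO cells Kif20a, Aurka, Ccnb1, Plk1 and Cdc20 fell with RA, 5 of the 10 members, beside 18.1% of all genes called lower, and no member was called higher by edgeR or DESeq2, beside 25.8%, with 1, Cdc25c, at an unadjusted p under 0.05. Kif20a went from 451 and 461 CPM to 206 and 205 CPM (log2 change -1.15 ± 0.07, edgeR adjusted p = 2.25e-08). Aurka went from 181 and 193 CPM to 93.7 and 98.5 CPM (log2 change -0.96 ± 0.08, edgeR adjusted p = 2.63e-05). Both RA libraries lay below both others in these genes, as they did in Bub1b (log2 change -0.68 ± 0.07, edgeR adjusted p = 0.0686), Cdk1 (-0.37 ± 0.08) and Tubgcp3 (-0.31 ± 0.09) and in 42.1% of all tested genes. Tubgcp3 had 69.4 and 62.2 CPM before and 48.8 and 57.7 CPM after RA, and was not called.

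Aurkb had 123 and 129 CPM before and 124 and 127 CPM after RA, and its groups overlapped. Cdc25c had 40.8 and 44.5 CPM before and 69.1 and 68.0 CPM after RA, without passing glmTreat (log2 change 0.69 ± 0.08, edgeR adjusted p = 0.0724). Both RA libraries of Cdc25c lay above both others, as in 45.0% of all tested genes, and with the thresholds of the TT-seq fit it would be called higher (34.3% of all genes). The members' median was -0.74, against 0.03 for all genes. With library size alone, which places that of all genes at 0.35, Kif20a was the only member called lower and Cdc25c was called higher. The call of Cdc20 was lost without DMSO replicate 2 before RA or DMSO replicate 2 after RA (edgeR adjusted p of up to 0.0113) and in DESeq2.

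In depleted cells Aurka, Ccnb1, Plk1, Cdc20, Cdk1, Kif20a and Aurkb fell with RA, 7 of the 10 members, beside 18.5% of all genes, and Tubgcp3 rose, beside 25.0%. Aurka went from 223 and 215 CPM to 70.7 and 60.2 CPM (log2 change -1.74 ± 0.08, edgeR adjusted p = 3.08e-12), the greatest decrease among the members in the 11 comparisons of groups. Plk1 went from 182 and 187 CPM to 72.8 and 71.0 CPM (log2 change -1.36 ± 0.07, edgeR adjusted p = 3.76e-10). Aurkb went from 117 and 124 CPM to 68.9 and 64.4 CPM, and Tubgcp3 from 32.6 and 33.0 CPM to 54.8 and 61.9 CPM. None of these groups overlapped, and 45.2% of all tested genes separated downward and 45.4% upward.

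The log2 change was -0.86 ± 0.07 for Aurkb (edgeR adjusted p = 0.00032) and 0.83 ± 0.09 for Tubgcp3 (edgeR adjusted p = 0.00457). The call of Tubgcp3 was lost in DESeq2, without the filter on counts and without dTAG-V1 replicate 1 or 2 before RA or dTAG-V1 replicate 2 after RA, with an edgeR adjusted p of up to 0.0476. That of Aurkb was lost without dTAG-V1 replicate 2 after RA (edgeR adjusted p = 0.0103), in DESeq2 and with library size alone, which also ended those of Cdk1 and Kif20a and places the median of all genes at 0.39.

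The difference between the RA effects, tested as the interaction of RA and depletion, was called below 0 for 6 members and above 0 for Tubgcp3, beside 18.0% of all tested genes called lower and 13.7% called higher by the thresholds of the TT-seq fit. Depletion lasted 24 h longer in the depleted cells with RA than in those without, so the added time and RA cannot be told apart. As a difference of log2 changes it was -0.85 ± 0.10 for Aurkb (edgeR adjusted p = 1.08e-06), -0.78 ± 0.11 for Aurka (9.48e-06), -0.77 ± 0.11 for Cdk1 (1.17e-05), -0.72 ± 0.11 for Cdc25c (3.12e-05), -0.58 ± 0.09 for Ccnb1 (4.89e-05) and -0.51 ± 0.10 for Plk1 (0.000368). It was 1.14 ± 0.13 for Tubgcp3 (edgeR adjusted p = 7.17e-07). Of the 6 lower calls 5 were in members without a ZFP143 peak. For Bub1b and Kif20a, both with a peak, the difference was -0.01 ± 0.11 (edgeR adjusted p = 0.942) and 0.16 ± 0.10 (edgeR adjusted p = 0.204). For Cdc20 it was -0.42 ± 0.11, with an edgeR adjusted p of 0.0029 but a size within 0.5. Plk1 lay so near 0.5 that its call was lost with library size alone, in DESeq2, with the size factors of DESeq2, and without any of 5 libraries (DMSO replicate 1 before RA, DMSO replicate 2 after RA, dTAG-V1 replicate 2 before RA and either dTAG-V1 replicate after RA), with values between -0.49 and -0.43.

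After RA, depleted cells had less mRNA of Plk1 and Aurkb than DMSO cells, the 2 members called beside 7.36% of all genes, and none was called higher by edgeR, DESeq2 or at an unadjusted p under 0.05, beside 9.10%. Plk1 had 157 and 168 CPM in DMSO with RA and 72.8 and 71.0 CPM in dTAG-V1 with RA (log2 change -1.17 ± 0.07, edgeR adjusted p = 1.44e-07). Aurkb had 124 and 127 CPM against 68.9 and 64.4 CPM (log2 change -0.91 ± 0.07, edgeR adjusted p = 0.000178). In all members but Tubgcp3 both depleted libraries lay below both DMSO libraries, as in 39.4% of all tested genes, with log2 changes from -0.74 ± 0.08 in Cdk1 (edgeR adjusted p = 0.0389) to -0.34 ± 0.08 in Cdc20 among those not called, and a median of -0.67 over the members against 0.00 for all genes. Tubgcp3 had 48.8 and 57.7 CPM against 54.8 and 61.9 CPM, and its groups overlapped.

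The 48 h time point of the time course had the same length of depletion without RA. Plk1 had a log2 change of -0.82 ± 0.05 there and -1.17 ± 0.07 after RA, Aurkb -0.23 ± 0.06 and -0.91 ± 0.07, Kif20a -0.89 ± 0.04 and -0.67 ± 0.07, Bub1b -0.46 ± 0.04 and -0.73 ± 0.08, and Tubgcp3 -0.88 ± 0.07 and 0.14 ± 0.09. Cdc25c had 0.47 ± 0.09 and -0.67 ± 0.08, Cdk1 -0.32 ± 0.05 and -0.74 ± 0.08, Aurka -0.08 ± 0.05 and -0.55 ± 0.08, Ccnb1 -0.15 ± 0.04 and -0.50 ± 0.07, and Cdc20 -0.03 ± 0.05 and -0.34 ± 0.08. These values are set side by side and their difference was not tested across experiments. At 24 h without RA the bound members also differed between these experiments. Plk1 had -0.33 ± 0.05 in the time course and -0.67 ± 0.07 in the RA experiment. Bub1b had -0.31 and -0.71, and Kif20a -0.56 and -0.82. Tubgcp3 went the other way, 2.36-fold and 2.01-fold below DMSO. The members without a peak lay between 0.03 and 0.27, and between -0.07 and 0.23. The part of RA in the differences was not tested. With the thresholds of the TT-seq fit 7 members would be called lower after RA (18.6% of all genes), and with library size alone only Plk1. Without dTAG-V1 replicate 1 after RA, Bub1b and Cdk1 were also called (edgeR adjusted p = 0.00868 and 0.00441).

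Markers of cell state moved with RA. The 8 stem cell markers summed to 7085 to 7227 CPM in DMSO and 1365 to 1947 CPM in DMSO with RA, and to 6395 to 6407 and 1447 to 1739 CPM in the depleted cells. The 6 primitive endoderm markers, all called higher with RA in both, summed to 4.46 to 5.22 CPM and 35.9 to 38.7 CPM in DMSO cells and to 8.10 to 11.0 CPM and 52.2 to 52.6 CPM in depleted cells. The 6 fibroblast markers summed to 3.57 to 5.10 CPM and, with RA, 12.7 to 16.2 CPM in DMSO cells, and to 4.86 to 4.99 CPM and 31.8 to 33.8 CPM in depleted cells, and Dcn had no count in any of these groups. The 8 neural markers summed to 246 to 262 CPM and, with RA, 116 to 135 CPM in DMSO cells, and to 144.9 to 145.05 CPM and 68.7 to 70.4 CPM in depleted cells, with 2 of the 5 tested called lower and 2 higher with RA in both. The part of these changes in the values of the members was not tested.

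**Figure D4:**
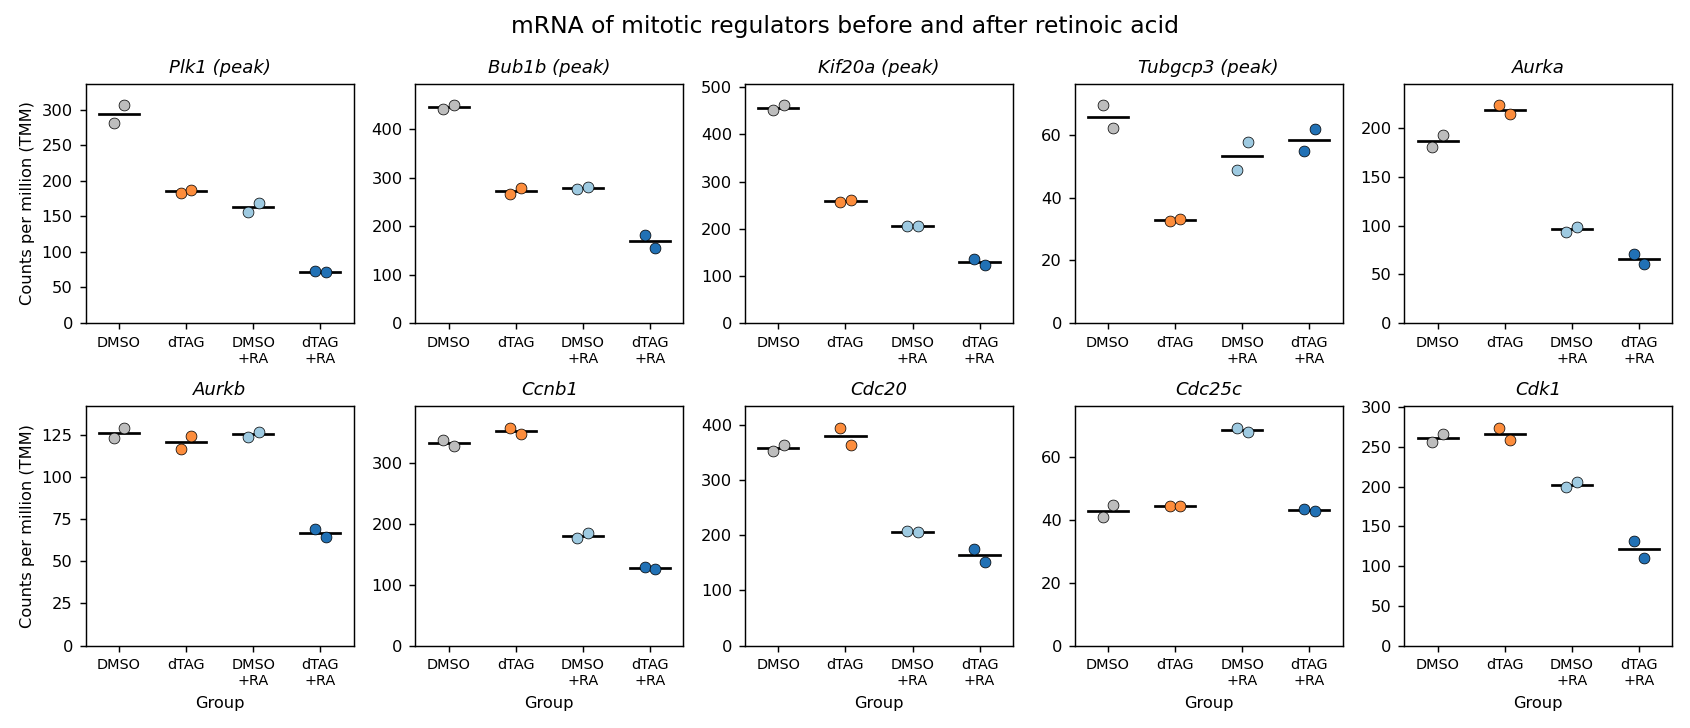
CPM (vertical axis, TMM-scaled, from 0) of the 10 members in each library of the RA experiment, by compound and RA; points are libraries and bars the mean of 2. Aurkb has 123 and 129 CPM in DMSO and 124 and 127 CPM in DMSO with RA but 68.9 and 64.4 CPM in dTAG-V1 with RA, and Tubgcp3 is lowest in dTAG-V1 without RA.

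**Figure D5:**
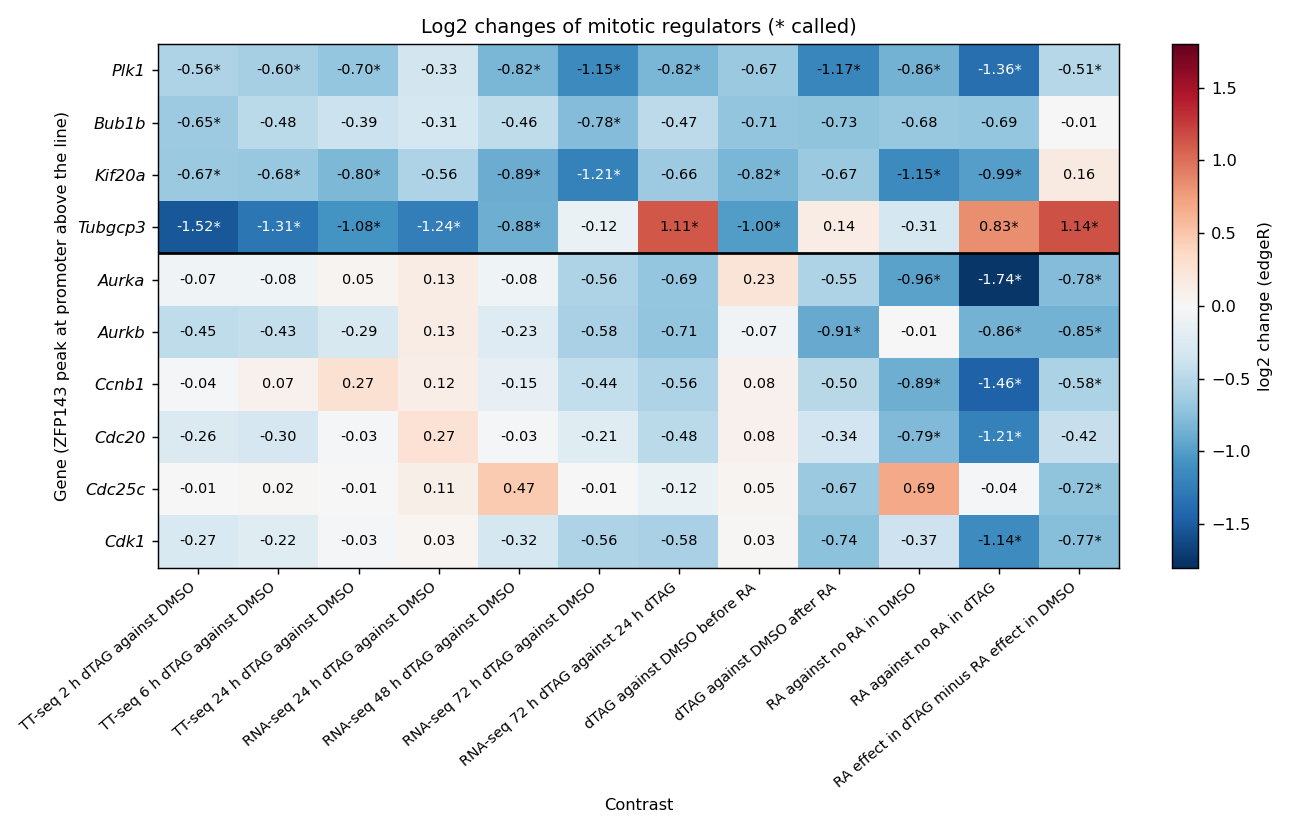
Log2 changes (colour and printed value, blue lower and red higher) of the 10 members in the 12 comparisons, with members that carry a ZFP143 peak above the line; an asterisk marks a call by the rule of that comparison. In TT-seq all asterisks lie above the line, and with RA they also appear below it, as for Aurkb at -0.91 after RA.

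Genes that overlap a member or share its promoter were checked. Kif20a is transcribed away from Brd8, which starts within the same ZFP143 peak and encodes a bromodomain protein. Brd8 had log2 changes of -0.65 ± 0.19 in TT-seq at 2 h (edgeR adjusted p = 0.17) and, in RNA-seq, of -0.81 ± 0.05 at 24 h (edgeR adjusted p = 0.000653), -0.65 ± 0.05 at 48 h and -0.38 ± 0.05 at 72 h. In RNA-seq its values were thus closest to DMSO at 72 h, where those of Kif20a were farthest. The end of Kif20a overlaps Cdc23, a subunit gene of the anaphase-promoting complex on the other strand, which had log2 changes of 0.05 at 2 h and -0.09 at 72 h, and the strand used for the RNA-seq counts is not given in the sources used here. The antisense gene Gm15489, which starts at the peak of Plk1, held 507 counts over the 8 TT-seq libraries and had -0.87 ± 0.35 at 2 h (edgeR adjusted p = 0.384).

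Other genes of mitosis were taken in 7 lists of 122 genes in all. In TT-seq at 2 h, 2 of 32 genes of the spindle checkpoint and kinetochore were called lower (median log2 change -0.03), 1 of 20 of the anaphase-promoting complex and its regulators (median -0.06), 2 of 22 mitotic entry kinases, cyclins and phosphatases (median -0.12) and 2 of 8 of the chromosomal passenger complex and Aurora partners (median -0.12). No call was made in edgeR or DESeq2 among 16 mitotic kinesins and cytokinesis genes (median -0.01), where 1 was lower and 1 higher at an unadjusted p under 0.05, or among 15 tested genes of the gamma-tubulin ring complex and centrosome (median 0.02), where 1 was lower, and 1 of 8 condensin genes was called lower (median 0.04). Of all tested genes 2.43% were called lower, with a median of 0.01. Espl1, which encodes separase, was the only list gene called higher, with 102 and 87.8 CPM in DMSO and 168 and 174 CPM at 2 h (log2 change 0.85 ± 0.13, edgeR adjusted p = 0.00969).

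Birc5, which encodes survivin, a partner of Aurora B in the passenger complex, had 67.0 and 66.8 CPM in DMSO and 22.2 and 22.5 CPM at 2 h (log2 change -1.58 ± 0.14, edgeR adjusted p = 0.000859). Bod1, a regulator of chromosome alignment, had 17.7 and 23.7 CPM against 6.37 and 5.48 CPM (log2 change -1.81 ± 0.26, edgeR adjusted p = 0.00728). Fzr1, which encodes CDH1, the activator that follows CDC20 on the anaphase-promoting complex, had 107 and 101 CPM against 50.3 and 49.9 CPM. All these libraries separated by group, which was a condition for naming a gene of the lists. The kinase gene Nek2 had 54.1 and 56.1 CPM against 30.2 and 32.3 CPM, and Rbl1, which encodes the pocket protein p107, 80.2 and 76.7 CPM against 41.6 and 35.3 CPM. Smc4, a core ATPase of condensin, had 159 and 205 CPM against 85.3 and 79.7 CPM, and the kinetochore gene Mis12 39.8 and 50.1 CPM against 18.6 and 25.1 CPM. None of these groups overlapped, again by that condition, and 20.6% of all tested genes separated downward at 2 h.

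In RNA-seq at 72 h, 6 of 32 kinetochore genes were called lower and 1 higher, 2 of 20 genes of the anaphase-promoting complex lower and 1 higher, 7 of 22 mitotic entry genes lower, 2 of 8 passenger genes lower, 2 of 16 kinesins and cytokinesis genes lower and 1 higher, 1 of 8 condensin genes lower. None of 16 centrosome genes was called by edgeR or DESeq2, and 2 were higher at an unadjusted p under 0.05. Of all genes 12.0% were called lower and 13.7% higher. DESeq2 called 3 kinetochore genes, 6 of mitotic entry and 1 of kinesins and cytokinesis lower, gave the same counts of lower calls in the other lists, and called no list gene higher. The list of mitotic entry had the lowest median of the 7, -0.27, against 0.02 for all genes. Rbl1 had 66.0 and 72.8 CPM in DMSO and 21.4 and 22.5 CPM at 72 h (log2 change -1.66 ± 0.09, edgeR adjusted p = 1.66e-12). Zw10, which recruits dynein to kinetochores, had 73.1 and 72.9 CPM against 24.1 and 26.3 CPM, and Cenpm, of the inner kinetochore, 39.4 and 34.9 CPM against 14.2 and 16.5 CPM. The phosphatase gene Cdc25a had 142 and 145 CPM against 63.9 and 75.4 CPM. Each of these genes was lower in both libraries, a condition for naming a list gene, as were 41.8% of all tested genes. Birc5 had 133 and 135 CPM against 63.7 and 61.0 CPM, and Ube2c, the ubiquitin-conjugating enzyme of the anaphase-promoting complex, 247 and 238 CPM against 128 and 130.3 CPM. The kinetochore gene Dsn1, the complex subunit gene Anapc16 and Cit, which encodes citron kinase of cytokinesis, were called higher by edgeR, with log2 changes of 0.76 ± 0.07, 0.96 ± 0.09 and 0.75 ± 0.05, and not by DESeq2.

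With RA in depleted cells, 15 of 32 kinetochore genes, 6 of 20 of the anaphase-promoting complex, 9 of 22 of mitotic entry, 5 of 8 of the passenger complex, 10 of 16 of kinesins and cytokinesis, 5 of 16 of the centrosome and 5 of 8 condensin genes were called lower, beside 18.5% of all genes. DESeq2 called 10, 4, 6, 4, 6, 3 and 0 in the same order, so that the calls in condensin were lost. In DMSO cells with RA it was 5, 4, 4, 3, 2, 2 and 0 by edgeR, beside 18.1% of all genes, and 4, 2, 3, 2, 2, 1 and 0 by DESeq2, with 1 condensin gene lower at an unadjusted p under 0.05. Genes of mitotic entry were also called higher with RA, 1 in depleted cells (Rbl2) and 2 in DMSO cells (Rbl2 and Cdc25b), beside 25.0% and 25.8% of all genes, and DESeq2 called 1 in each. In the interaction 12, 5, 6, 1, 7, 2 and 1 were called lower and 2, 0, 1, 1, 0, 0 and 1 higher, beside 18.0% and 13.7% of all genes, and DESeq2 called 11, 4, 5, 0, 5, 1 and 1 lower and 3, 0, 2, 1, 0, 0 and 1 higher. Between depleted and DMSO cells after RA, edgeR called 2, 1, 4, 2, 0, 0 and 0 lower in that order and 1 kinetochore gene, Cenpt, higher, beside 7.36% and 9.10% of all genes. DESeq2 called 1, 0, 2, 2, 0, 0 and 0 lower and none higher, and at an unadjusted p under 0.05 3 kinesins and cytokinesis genes were lower. Cenpt had 113 and 116 CPM in DMSO and 189 and 202 CPM in dTAG-V1 (log2 change 0.77 ± 0.07, edgeR adjusted p = 0.00998). Cenpm had 55.1 and 43.7 CPM in DMSO and 11.9 and 13.3 CPM in dTAG-V1 (log2 change -1.98 ± 0.12, edgeR adjusted p = 1.19e-09). The cyclin gene Ccnb2 had 193 and 207 CPM against 104 and 88.5 CPM, and Ccna2, which encodes cyclin A2, 281 and 276 CPM against 155 and 134 CPM. The groups of these 4 genes did not overlap, as the rule for naming list genes requires. After RA 39.4% of all tested genes separated downward.

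Over the 16 RNA-seq libraries of both tables, with each library centred on the DMSO mean of its table, the genes closest to Plk1 by Pearson's r of log2(CPM + 1) among 13782 genes included Pabpc1 (r = 0.993), Cfdp1 (0.993), H2afx (0.991) and the processed pseudogene Gm6560 (0.987), whose reads may be shared with a near-identical copy. Those closest to Bub1b were Eif3d (r = 0.982), Nudt3 (0.981), Usp14 (0.979), Cfdp1 (0.975) and Cyc1 (0.972). Of these, Pabpc1, Cfdp1, Eif3d, Usp14 and Cyc1 have a ZFP143 peak at the promoter, and H2afx, Gm6560 and Nudt3 do not. The share was 15.3% of the protein-coding genes tested in TT-seq. Among the members Plk1 was closest to Kif20a (r = 0.971) and Bub1b (0.968), both with a peak. It was farthest from Tubgcp3 (-0.07), which also has a peak, and Cdc25c (-0.06). It had r = 0.931 with Cdk1, 0.89 with Aurkb, 0.849 with Ccnb1, 0.827 with Aurka and 0.784 with Cdc20. The libraries come in groups of 2 and share the wide changes that RA and its medium make, so these are descriptions of shape.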

How the data were processed

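TT-seq and RNA-seq counts per gene were used as deposited. The authors aligned reads to mm10 with STAR, counted RNA-seq reads with STAR and TT-seq reads with HTSeq over gene bodies by strand, and used GENCODE vM25. The authors called ZFP143 peaks with MACS2, whose file holds a score, a fold enrichment over input and −log10 q-values. CTCF peaks were deposited as intervals. No expression column was left unused. Hi-C, ATAC-seq and 4C data were not analysed here.

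Genes above 10 counts in 4 or more of the 8 libraries were tested across all genes with edgeR 4.0.16 (TMM, quasi-likelihood) in R 4.3.3, one fit per table, with Benjamini-Hochberg adjustment. Standard errors are the log2 change divided by the root of the F statistic. TT-seq and the interaction used an adjusted p under 0.05 and a log2 change above 0.5, and RNA-seq glmTreat at 1.5-fold with an adjusted p under 0.01. The study's methods call the 2 libraries of a group biological replicates, and p-values measure the spread between them. No 2 libraries were identical. The scripts were tested on simulated data. Gene positions came from GENCODE vM21, which held 55141 of the 55401 identifiers. The alternatives were DESeq2 1.42.0, its size factors, library size alone, no filter, a replicate block, other thresholds and windows, and leaving out each library.

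All members are named. From each list, called genes with a mean count of at least 100 and groups that did not overlap were eligible, up to the 2 greatest changes in each direction, and a selection of them is described. For Plk1 and Bub1b, the 5 genes of highest r were eligible, of which 1 is not reported here. The members and lists were chosen with earlier results of these data known.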

Additional observations from a re-analysis of the deposited data

Results flagged for a closer look

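The RA effect differed between depleted and DMSO cells for 7 members, by the interaction test of edgeR with an adjusted p under 0.05 and a size above 0.5. As a difference of log2 changes, the effect in dTAG-V1 less the effect in DMSO was -0.51 for Plk1, -0.78 for Aurka, -0.85 for Aurkb, -0.58 for Ccnb1, -0.72 for Cdc25c, -0.77 for Cdk1 and 1.14 for Tubgcp3. Under the same rule 18.0% of all tested genes were called lower and 13.7% higher. The call of Plk1 was lost in DESeq2, with its size factors, with library size alone and without any of 5 libraries. The depleted cells had gone 24 h longer without ZFP143 in the RA libraries than before RA, so the added time and RA cannot be told apart.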

How the results depend on the processing

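Direction and side of the threshold were kept in 614 of 680 values of single genes under other settings, and in 450 of 520 when a library was left out. With the thresholds of the TT-seq fit, members called lower were 2 at 24 h, 6 at 72 h, 6 for 72 against 24 h, 4 before RA and 7 after RA in RNA-seq, and 1 was higher with RA in DMSO. With library size alone, members called lower were 0 at 48 h, 0 before RA, 1 after RA, 1 with RA in DMSO, where 1 was higher, and 4 with RA in dTAG-V1. In DESeq2 and without the filter 0 members were higher with RA in dTAG-V1. In DESeq2 several list counts were lower by over 1.5 times, among them 3 against 6 kinetochore genes at 72 h, and 6 against 10 kinesins and cytokinesis genes, 3 against 5 centrosome genes and 0 against 5 condensin genes with RA in dTAG-V1. Leaving out a library gave, as lowest and highest, 1 and 1 members called lower in TT-seq at 2 h, 0 and 1 (6 h), 1 and 3 (24 h), 1 and 1 before RA and 2 and 4 after RA, and 0 and 1 called higher with RA in dTAG-V1.

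The log2 changes that turned sign with library size alone were Cdc25c -0.00665 in TT-seq at 6 h, Cdc20 0.0238, Cdc25c 0.0472 and Cdk1 0.0298 at 24 h, Aurka 0.12, Ccnb1 0.0465 and Cdc20 0.17 in RNA-seq at 48 h, Cdc20 0.00514, Cdc25c 0.21 and Tubgcp3 0.0941 at 72 h, Aurkb 0.0703 before RA, Aurkb 0.31 and Tubgcp3 0.00703 with RA in DMSO, Cdc25c 0.35 with RA in dTAG-V1 and Bub1b 0.0601 in the interaction. In DESeq2, and in edgeR with its size factors, Cdk1 was -0.00151 and -0.00157 before RA, Cdc25c 0.00224 and 0.00225 with RA in dTAG-V1 and Bub1b 0.0443 and 0.0443 in the interaction. Leaving out a library turned values that lay, in TT-seq, from -0.14 to 0.0423 (2 h), -0.16 to 0.0196 (6 h) and -0.0307 to 0.15 (24 h) for Aurka, -0.0906 to 0.0268 (2 h) and -0.0262 to 0.16 (6 h) for Ccnb1, -0.23 to 0.28 (2 h), -0.21 to 0.30 (6 h) and -0.24 to 0.28 (24 h) for Cdc25c, and, at 24 h, -0.15 to 0.0813 for Cdc20 and -0.10 to 0.0633 for Cdk1. In RNA-seq they lay between -0.0397 and 0.11 for Cdk1 at 24 h, -0.0587 and 0.00320 for Cdc20 at 48 h, -0.21 and 0.11 at 72 h and -0.31 and 0.0115 for 72 against 24 h for Cdc25c, -0.00987 and 0.12 for Cdc25c and -0.0161 and 0.0678 for Cdk1 before RA, -0.0420 and 0.0228 for Aurkb with RA in DMSO, and -0.0717 and 0.16 for Bub1b in the interaction. None of the values that turned was called before, and the cause was not tested.

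With the replicate number as a block, the counts of members called stayed within 1.5 times, with 4 lower in TT-seq at 2 h. Deviations of same-numbered libraries correlated at 0.193 to 0.631 in TT-seq, -0.0419 to 0.0621 in the time course and -0.0986 to 0.125 in the RA experiment, and the labels do not say that a number marks a batch. The SE of a member's log2 change was 0.12 to 0.17 in TT-seq at 2 h and 0.04 to 0.09 in RNA-seq at 72 h.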

Other observations

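Of the 122 genes of the 7 lists of mitosis, 32 have a ZFP143 peak at the promoter, by the same rule as for the members. The share was 15.3% of the protein-coding genes tested in TT-seq, and the lists were chosen with earlier results of these data known. In TT-seq at 2 h, 8 of these 32 were called lower and 1, Espl1, higher, with a median log2 change of -0.31, beside 17.8% of all protein-coding genes with a peak called lower, and none of the 89 tested genes without a peak was called in edgeR or DESeq2, with a median of 0.00 and with 5 lower and 1 higher at an unadjusted p under 0.05. In RNA-seq at 72 h, 13 of 32 with a peak were called lower and 0 higher by edgeR (median -0.50), beside 26.0% of all protein-coding genes with a peak called lower. Of the 90 without a peak 7 were called lower and 3 higher (median -0.09), beside 10.2% of all protein-coding genes without a peak called lower. Calls higher made up 13.7% of all tested genes. The genes with a peak include 10 of the 22 of mitotic entry, among them Cdc25a, Ccna2 and Nek2, and 4 of the 8 of the passenger complex, which are Birc5, Cdca8, Tpx2 and Bod1. Among the 16 genes of the gamma-tubulin ring complex and centrosome 1 has a peak, Cenpj.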
